A study of Homo sapiens with 6 samples.

Results

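The genes described here are 10 genes of the epithelial-mesenchymal transition (EMT) in MDA-MB-231 cells, taken by symbol from the 58735 genes of the deposited tables. They comprised the EMT transcription factors SNAI1, SNAI2, TWIST1, ZEB1 and ZEB2, the mesenchymal state markers VIM and FN1, the epithelial regulators GRHL2 and OVOL1, and the epithelial surface marker EPCAM. RNA sequencing compared 3 vehicle cultures with 3 cultures given SCH, a freeze-dried water extract of the medicinal plant Salvia chinensis Benth, at 100 mg/l for 24 h. The paper expresses its doses as the weight of raw herb to which the extract corresponds. All 6 were wild-type cultures of MDA-MB-231, a human line of triple-negative breast cancer that lacks the oestrogen and progesterone receptors and HER2 amplification, and the submitters described the 3 in each group as biological repeats. The p-values below measure the spread between these 6 cultures of 1 cell line. Gene counts summed to 20291379, 18714240 and 18334857 in the vehicle samples and to 16836369, 17979434 and 18414924 in the SCH samples.

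EMT is the reversible programme by which epithelial cells loosen their junctions, lose apical-basal polarity and take up a motile, matrix-producing state. SNAI, ZEB and TWIST proteins bind E-box sequences and repress junction genes such as CDH1, while GRHL2 and OVOL1 oppose them and hold the epithelial state. MDA-MB-231 cells are widely used as a mesenchymal-like breast cancer model with abundant vimentin and little E-cadherin.

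The markers of the line were checked against the label. VIM, CD44, CAV1 and AXL summed to 4356, 4441 and 4411 CPM (read counts brought to a common library size, with a correction for composition) in the vehicle samples and to 3001, 3071 and 3056 CPM in the SCH samples. AXL was the most abundant of them with vehicle (1562 ± 38.4 CPM) and CD44 with SCH (1023 ± 23.6 CPM, SD, n = 3 each). ESR1, the oestrogen receptor gene, had 4, 4 and 4 counts in the vehicle samples and 1, 3 and 3 in the SCH samples, and PGR had at most 1 count. The basal epithelial markers KRT5, KRT14 and TP63 summed to 0.154, 0.334 and 0.169 CPM with vehicle and 0.459, 0.107 and 0.473 CPM with SCH. KRT5 had no count in any sample, TP63 had 0 to 4 counts, and KRT14, the most abundant, had 0, 2 and 0 counts with vehicle and 5, 2 and 8 with SCH. These levels describe a line with abundant mesenchymal markers and hormone receptor genes near 0.

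Promoter windows show where the E-box that SNAI and ZEB factors bind lies in members of the panel. RefSeq windows (GRCh38.p14, 250 bases before to 50 bases after a transcription start) were matched for 4 of the 10 genes, with 7 windows for ZEB1 and 1 each for ZEB2, VIM and FN1. The E-box searched was CAGGTG or its reverse complement CACCTG, present in 20.6% of all 35116 windows, and the Grainyhead motif was AACCGGTT, which is its own reverse complement and was present in 0.134%. Among the members, E-box letters occurred in 2 of the 7 ZEB1 windows and in no window of ZEB2, VIM or FN1, and no member window held AACCGGTT. The 3 sequences below are the ZEB1 window with the most E-boxes (chr10:31318966-31319265, plus strand), the VIM window (chr10:17227991-17228290, plus strand), since VIM had the highest level of the panel, and the FN1 window (chr2:215436019-215436318, minus strand), the other state marker, all written 5′ to 3′ with E-box letters in capitals.
ZEB1 promoter: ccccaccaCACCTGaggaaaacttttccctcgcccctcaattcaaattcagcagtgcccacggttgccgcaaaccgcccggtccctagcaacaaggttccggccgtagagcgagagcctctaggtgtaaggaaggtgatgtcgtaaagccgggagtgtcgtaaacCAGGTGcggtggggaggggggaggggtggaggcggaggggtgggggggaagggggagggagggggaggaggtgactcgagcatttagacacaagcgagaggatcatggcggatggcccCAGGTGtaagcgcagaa
VIM promoter: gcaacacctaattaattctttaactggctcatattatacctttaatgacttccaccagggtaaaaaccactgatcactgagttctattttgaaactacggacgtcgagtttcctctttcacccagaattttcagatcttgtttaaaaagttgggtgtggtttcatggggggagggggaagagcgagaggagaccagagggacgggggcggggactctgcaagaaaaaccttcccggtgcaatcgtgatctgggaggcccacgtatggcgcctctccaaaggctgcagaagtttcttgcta
FN1 promoter: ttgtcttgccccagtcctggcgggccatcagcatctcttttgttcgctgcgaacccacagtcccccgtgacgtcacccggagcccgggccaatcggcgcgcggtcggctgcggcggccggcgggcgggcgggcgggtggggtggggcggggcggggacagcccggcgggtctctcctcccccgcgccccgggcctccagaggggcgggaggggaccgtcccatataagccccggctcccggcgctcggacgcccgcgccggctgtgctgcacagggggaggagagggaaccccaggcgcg
The ZEB1 window holds 3 E-boxes, and the other 2 windows hold none. GC content was 61.7% in the ZEB1 window, 48.0% in the VIM window and 76.7% in the FN1 window. A match is a description of letters and not evidence that a factor was bound.

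After SCH, SNAI1 rose, whereas SNAI2, VIM and EPCAM fell, and ZEB1, ZEB2 and FN1 did not pass the test. TWIST1, GRHL2 and OVOL1 had almost no reads in either group. Counts of members are set beside those of the whole transcriptome. By edgeR's quasi-likelihood test with Benjamini-Hochberg adjustment, 58.7% of the 14736 tested genes changed at an adjusted p under 0.05, with 29.3% raised and 29.4% lowered, and 62.4% had groups that did not overlap. Of the changed genes 49.9% were raised, a share of 62.6% with scaling by library size alone. Of the 10 members, 7 passed the low-count filter and 4 of those 7 changed (57.1%), 1 upward and 3 downward, and the groups of the same 4 did not overlap. That share was near the background of the transcriptome and is not a result about the panel. The median log2 fold change (SCH over vehicle) was -0.06 over the 7 members and -0.0034 over all tested genes.

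**Figure D1:**
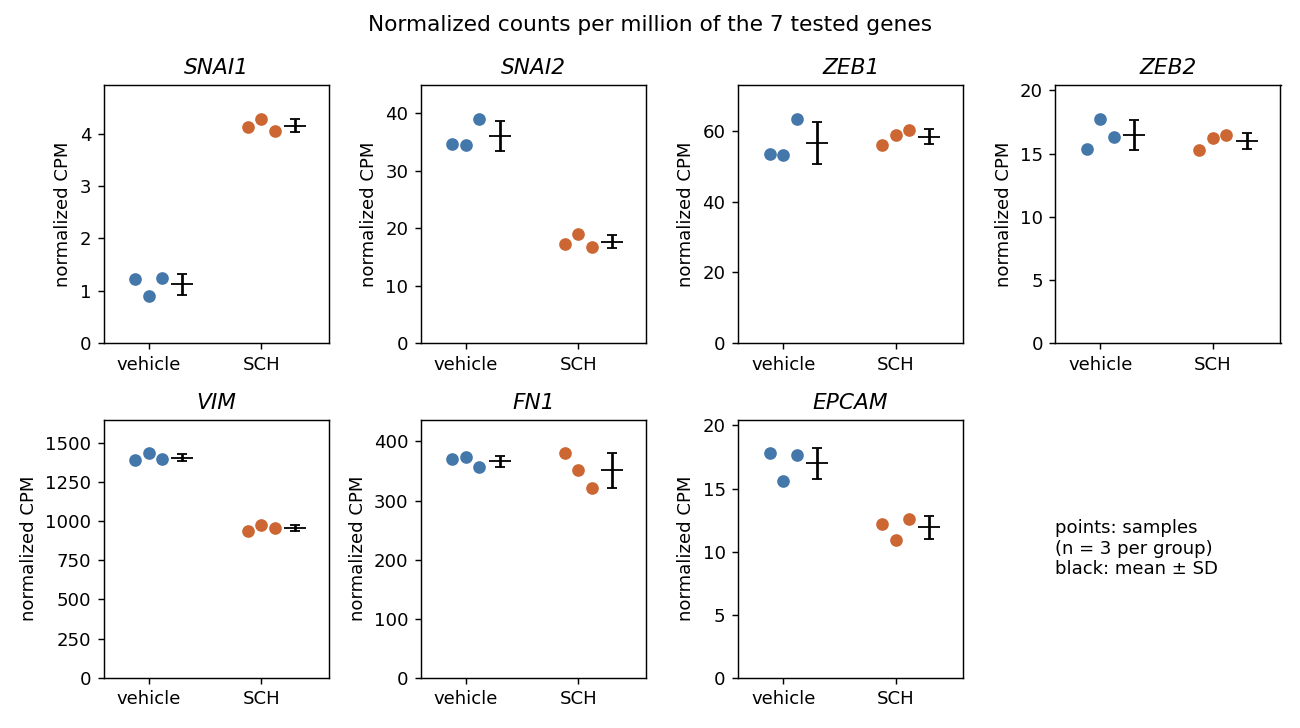
CPM of the 7 tested members in the 3 vehicle and 3 SCH samples (points) with group mean and SD (black bars), each gene on its own axis. SNAI1 lies higher in every SCH sample, SNAI2, VIM and EPCAM lie lower in every SCH sample, and the groups of ZEB1, ZEB2 and FN1 overlap.

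SNAI1 encodes Snail, a zinc finger repressor of CDH1 and an early inducer of EMT (ENSG00000124216, chr20:49982999-49988886, plus strand, GRCh38). It had 24, 16 and 22 counts in the vehicle samples and 72, 80 and 77 counts in the SCH samples. Every SCH sample lay above every vehicle sample. In CPM, the vehicle samples held 1.23, 0.891 and 1.24 and the SCH samples 4.13, 4.29 and 4.05. The mean went from 1.12 ± 0.198 to 4.16 ± 0.125 CPM (SD, n = 3 each), and the fold fitted by edgeR was 3.69. The log2 fold change was 1.88 with an SE of 0.22 and a 95% confidence interval of 1.43 to 2.34 (edgeR adjusted p = 1.18e-07). This was the largest change of the panel in either direction, on the lowest counts of the 7 tested members.

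SNAI2 encodes Slug, the close relative of Snail, and is commonly abundant in basal-like breast cells (ENSG00000019549, chr8:48917604-48921740, minus strand). The counts were 676, 618 and 695 with vehicle and 300, 353 and 318 with SCH. In CPM, the vehicle samples held 34.7, 34.4 and 39.1 and the SCH samples 17.2, 18.9 and 16.7, so that the lowest vehicle sample lay well above the highest SCH sample. SNAI2 fell from 36.1 ± 2.62 to 17.6 ± 1.17 CPM (SD, n = 3 each), by -1.03 on the log2 scale (SE 0.081, 95% confidence interval -1.2 to -0.86, edgeR adjusted p = 1.70e-10). The SCH level was 0.489 times the vehicle level.

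The 2 SNAI genes therefore moved in opposite directions in the same 3 SCH samples. On the FPKM scale, which divides by gene length and allows levels of different genes to be set side by side, SNAI1 made up 6.67, 4.95 and 5.99% of the summed SNAI1 and SNAI2 level in the vehicle samples and 32.6, 31.3 and 32.8% in the SCH samples. The SNAI1 to SNAI2 ratio of FPKM went from 0.0624 ± 0.00973 to 0.475 ± 0.0169 (SD, n = 3 each). SNAI2 remained the more abundant transcript in every SCH sample. This ratio was chosen after the values were seen and carries no test. The third family member, SNAI3, had 22, 9 and 18 counts with vehicle and 30, 26 and 25 with SCH, a log2 fold change of 0.73 that missed the threshold (edgeR adjusted p = 0.0532). SNAI3 passed with scaling by library size alone (adjusted p = 0.0283), on both log2 FPKM scales in limma (0.0382 and 0.0275) and without vehicle replicate 1 (0.0362). It also passed with the replicate numbers fitted as a block (edgeR adjusted p = 0.0448). SNAI3 did not pass in DESeq2 (adjusted p = 0.114), without SCH replicate 1 (0.166) or without vehicle replicate 2, where its log2 fold change was 0.46 (0.255). Nor did SNAI3 pass with RLE scaling (edgeR adjusted p = 0.0521), upper quartile scaling (0.0644) or no low-count filter (0.0597). Leaving out SCH replicate 2 (edgeR adjusted p = 0.079), SCH replicate 3 (0.0627) or vehicle replicate 3 (0.0634) also left it short of the threshold.

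ZEB1 and ZEB2 encode large zinc finger homeodomain repressors that are held down by miR-200 family miRNAs in epithelial cells. ZEB1 (ENSG00000148516, chr10:31318495-31529814, plus strand) had 53.5, 53.3 and 63.7 CPM in the vehicle samples and 56.1, 59.1 and 60.4 CPM in the SCH samples. The SCH values lay inside the vehicle range. The means were 56.8 ± 5.94 and 58.5 ± 2.17 CPM (SD, n = 3 each). The difference on the log2 scale was 0.04, with a 95% confidence interval of -0.10 to 0.19 (edgeR adjusted p = 0.599). It was 0.14 without vehicle replicate 3 (adjusted p = 0.0578), the highest vehicle sample, 0.0040 without vehicle replicate 2, 0.0073 without vehicle replicate 1, 0.08 without SCH replicate 1 and 0.15 with scaling by library size alone (adjusted p = 0.0749).

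ZEB2 (ENSG00000169554, chr2:144364364-144524583, minus strand) had 15.4, 17.8 and 16.3 CPM with vehicle and 15.3, 16.3 and 16.5 CPM with SCH. The groups overlapped. The log2 fold change was -0.04 with a 95% confidence interval of -0.23 to 0.15 (edgeR adjusted p = 0.717), and its sign turned to positive (0.06) with scaling by library size alone. The ZEB1 to ZEB2 ratio of FPKM was 10.0 ± 1.31 with vehicle and 10.6 ± 0.0701 with SCH (SD, n = 3 each). Opposite-strand exons of ZEB1-AS1 and ZEB2-AS1 cover 4.23% and 5.18% of the exonic bases of ZEB1 and ZEB2. Both are long genes, and the levels of other genes of like span were read beside them. The 1628 tested genes spanning 100000 to 200000 bases, the range of ZEB2 (160220 bases), had a median log2 fold change of -0.0078, with 497 raised and 507 lowered. The 500 spanning 200000 to 300000 bases, the range of ZEB1 (211320 bases), had a median of -0.14, with 103 raised and 218 lowered. Of all tested genes 29.3% were raised and 29.4% lowered.

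TWIST1 encodes a basic helix-loop-helix factor of mesoderm formation and EMT (ENSG00000122691, chr7:19020991-19117672, minus strand). No read was counted for it in any of the 6 samples, and a count of 0 allows up to 3 counts per library, or 0.154 to 0.172 CPM. This limit covers counting error only. TWIST1 was not detectable at this depth in either group, and no fold change is given.

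VIM encodes vimentin, the intermediate filament of mesenchymal cells and the standard marker of this state (ENSG00000026025, chr10:17228259-17237593, plus strand). Its level was 1392, 1433 and 1394 CPM in the vehicle samples and 938, 977 and 955 CPM in the SCH samples. Each SCH sample lay far below each vehicle sample. VIM fell from 1406 ± 23.1 to 957 ± 19.7 CPM (SD, n = 3 each), with a log2 fold change of -0.56 (SE 0.044, 95% confidence interval -0.65 to -0.46, edgeR adjusted p = 2.02e-10). The SCH level was 0.680 times the vehicle level, and VIM was still the most abundant member. Exons of VIM-AS1 on the opposite strand cover 24.4% of the exonic bases of VIM, and the part of that overlap in the VIM level was not tested. Per-culture RNA cannot separate fewer cells with high VIM from less VIM RNA per cell, and this holds for each gene here.

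FN1 encodes fibronectin, a secreted matrix glycoprotein bound by integrins (ENSG00000115414, chr2:215360440-215436172, minus strand). Its values were 369.6, 374 and 356 CPM with vehicle and 379.9, 351 and 322 CPM with SCH. The SCH samples straddled the vehicle range, the first above it and the other 2 below it. The log2 fold change was -0.06 with a 95% confidence interval of -0.17 to 0.05 (edgeR adjusted p = 0.324), and its sign turned to positive (0.04) with scaling by library size alone. The change was -0.12 without SCH replicate 1 (edgeR adjusted p = 0.0528) and 0.007 without SCH replicate 3. The 2 state markers thus differed in their tested change, VIM past the threshold and FN1 not, and the difference between them was not tested.

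EPCAM encodes an epithelial cell adhesion molecule on the surface of carcinoma cells (ENSG00000119888, chr2:47345158-47387601, plus strand). It had 17.8, 15.6 and 17.7 CPM with vehicle and 12.2, 10.9 and 12.6 CPM with SCH. The groups did not overlap. EPCAM fell from 17.0 ± 1.23 to 11.9 ± 0.900 CPM (SD, n = 3 each), with a log2 fold change of -0.52 (SE 0.098, 95% confidence interval -0.72 to -0.31, edgeR adjusted p = 9.22e-05). VIM and EPCAM, markers of opposite states, both fell, to 0.680 and 0.700 of the vehicle level. The VIM to EPCAM ratio of FPKM was 40.5 ± 3.75 with vehicle and 39.4 ± 3.79 with SCH (SD, n = 3 each).

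GRHL2, a Grainyhead-type activator of junction genes (ENSG00000083307, chr8:101492432-101669726, plus strand), had 1 count in 1 vehicle and 1 SCH sample and 0 in the other 4. OVOL1, a zinc finger repressor of ZEB1 (ENSG00000172818, chr11:65787022-65797219, plus strand), had 2 counts in 1 vehicle sample and 0 in the other 5. Exons of an opposite-strand gene, AP001266.1, cover 27.1% of the exonic bases of OVOL1. Both epithelial regulators were at or under 3 counts in every library, so neither was tested and no fold change is given.

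**Figure D2:**
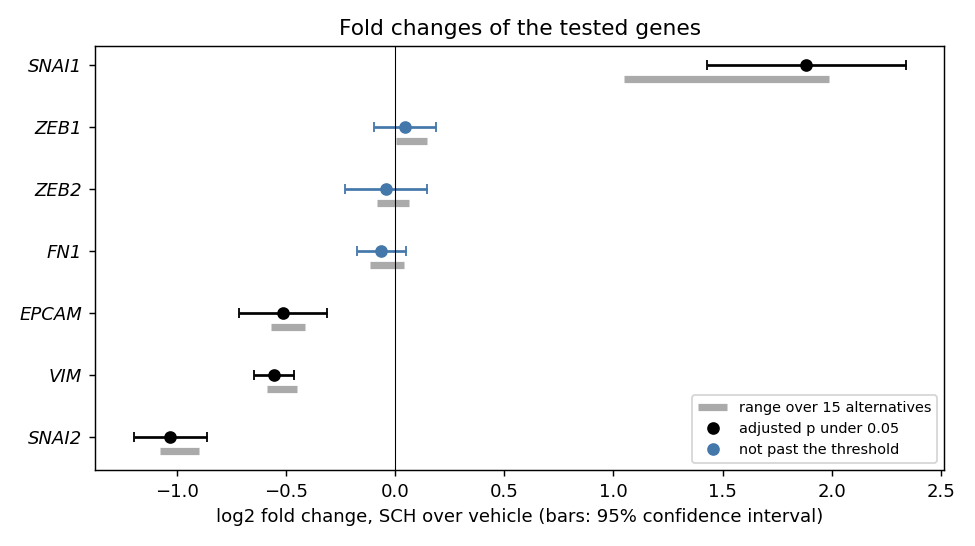
Log2 fold change of the 7 tested members (SCH over vehicle, points) with 95% confidence intervals (bars) from edgeR. The interval of SNAI1 lies above 0, those of SNAI2, VIM and EPCAM lie below 0, and those of ZEB1, ZEB2 and FN1 include 0.

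With 3 samples in each group, the exact two-sided permutation test cannot go below p = 0.1. In this exact test SNAI1, SNAI2, VIM and EPCAM each gave p = 0.1. ZEB1 gave 0.8, and ZEB2 and FN1 gave 0.6 (exact permutation of log2(CPM + 0.5), n = 3 each). None of these passes 0.05, and the calls above rest on the model fitted across all genes.

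In FPKM, the vehicle levels ran from VIM at 263 ± 4.45 through FN1 at 20.5 ± 0.539 and SNAI2 at 10.3 ± 0.739 to EPCAM at 6.53 ± 0.469, ZEB1 at 6.34 ± 0.659, SNAI1 at 0.642 ± 0.113 and ZEB2 at 0.636 ± 0.0466 (SD, n = 3 each). The ranges of EPCAM and ZEB1 overlapped, as did those of SNAI1 and ZEB2, so these neighbours had no order beyond their spread. Among tested genes, VIM stood at the 99.2nd percentile of vehicle FPKM, FN1 at the 82.7th, SNAI2 at the 69.0th, EPCAM at the 58.5th, ZEB1 at the 57.9th, SNAI1 at the 16.5th and ZEB2 at the 16.3rd. With SCH the order became VIM at 180 ± 3.45, FN1 at 19.7 ± 1.70, ZEB1 at 6.57 ± 0.221, SNAI2 at 5.04 ± 0.339, EPCAM at 4.59 ± 0.344, SNAI1 at 2.39 ± 0.0750 and ZEB2 at 0.620 ± 0.0231 FPKM. ZEB1, which shared its range with EPCAM before, then lay above SNAI2 and EPCAM, whose ranges overlapped. The FPKM divides by all exonic bases of a gene, 25058 for ZEB2 against 8650 for ZEB1 and 1686 for SNAI1, and by CPM ZEB2 (16.5 ± 1.205) was far above SNAI1 in the vehicle samples.

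**Figure D3:**
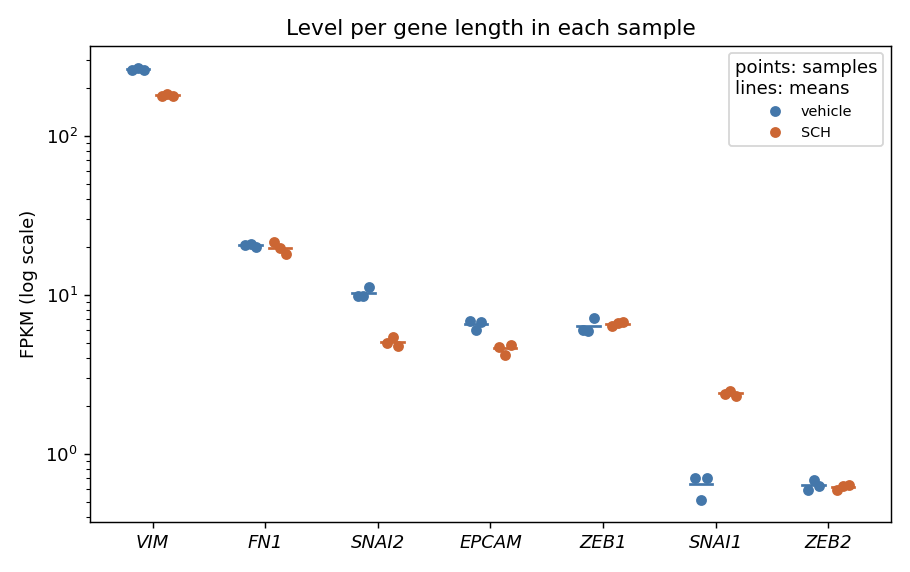
FPKM on a log axis of the 7 tested members in each sample (points) with group means (lines), ordered by vehicle level. SNAI1 moves from the level of ZEB2 with vehicle (0.642 and 0.636 FPKM) to a higher level with SCH (2.39 and 0.620 FPKM), and SNAI2 moves from above ZEB1 to below it.

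Of 18 further factors listed from general knowledge, 12 were tested, 3 rose, 8 fell and SNAI3 did not pass. Of those tested 91.7% changed, against 58.7% of all tested genes (29.3% raised and 29.4% lowered), and the median log2 fold change was -0.42 against -0.0034 over all tested genes. This list and those below were chosen with earlier results of these data known, and their shares carry no test. Values in parentheses in what follows are log2 fold changes (SCH over vehicle) with edgeR adjusted p-values, and ± marks the SD of 3 samples. TWIST2, PRRX2, GSC and TBXT had no count in any sample. HMGA2, an AT-hook chromatin protein that promotes SNAI1 transcription, fell from 207 ± 1.73 to 71.9 ± 6.55 CPM (log2 fold change -1.52, SE 0.059, edgeR adjusted p = 6.95e-16). PRRX1, a homeobox factor of mesenchyme, fell from 3.65 ± 0.221 to 1.78 ± 0.193 CPM (-1.04, adjusted p = 1.34e-04). KLF8, a Krüppel-like repressor of CDH1, rose from 2.16 ± 0.291 to 4.18 ± 0.436 CPM (0.95, adjusted p = 1.95e-04). The other 2 that rose were FOXC1 (log2 fold change 0.38) and SOX4 (0.17), named after their values were seen.

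SNAI and ZEB proteins repress by recruiting chromatin enzymes. Of 21 cofactor genes listed, not all of them enzymes or repressors, all were tested, 7 rose and 12 fell. The changed share was 90.5% against 58.7% of all tested genes (29.3% raised, 29.4% lowered), with a median of -0.14. LOXL2, a lysyl oxidase that acts with Snail, fell from 329 ± 23.7 to 190 ± 12.6 CPM (-0.79, edgeR adjusted p = 3.89e-11). EHMT2, the H3K9 methyltransferase G9a, of whose exonic bases 8.12% overlap EHMT2-AS1, fell from 66.7 ± 1.35 to 43.7 ± 2.19 CPM (-0.61, adjusted p = 1.05e-08). SIRT1, a deacetylase, rose from 30.0 ± 2.11 to 45.7 ± 3.29 CPM (0.60, adjusted p = 2.11e-07). None of the changes in this group reached 1 on the log2 scale.

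Snail protein is short-lived, and kinases, ubiquitin ligases and deubiquitinases set its turnover. Of 23 genes listed for this, 21 were tested and 33.3% changed, against 58.7% of all tested genes (29.3% raised and 29.4% lowered), with 7 raised and none lowered by edgeR. The raised share of 33.3% was near that of all tested genes. At an unadjusted p under 0.05, 1 was lowered, and DESeq2 lowered 0. LATS2, a Hippo pathway kinase, rose from 46.6 ± 2.81 to 60.0 ± 4.33 CPM (0.36, adjusted p = 6.66e-05) and ATM, the DNA damage kinase, rose from 65.5 ± 4.12 to 78.3 ± 2.61 CPM (0.26, adjusted p = 7.06e-04). USP37, a deubiquitinase, rose from 18.6 ± 0.836 to 21.9 ± 1.90 CPM (0.24, adjusted p = 0.0204), and 32.8% of its exonic bases overlap VIL1. The USP37 call was lost in 5 of 15 alternative settings, among them leaving out SCH replicate 2 (adjusted p = 0.104), vehicle replicate 1 (0.0641) or vehicle replicate 2 (0.0574). The list count dropped from 7 to 4 without SCH replicate 1, SCH replicate 2 or vehicle replicate 2. RNA levels say nothing of protein turnover itself.

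Of 37 genes of the epithelial state, 28 were tested, 12 rose and 7 fell, with a median log2 fold change of 0.17. The changed share of 67.9% stood beside 58.7% of all tested genes, of which 29.3% rose and 29.4% fell. PATJ, a tight junction polarity protein, fell from 5.20 ± 0.433 to 1.46 ± 0.236 CPM (-1.84, edgeR adjusted p = 3.36e-08), LLGL2, a basolateral polarity protein, rose from 9.60 ± 0.881 to 22.2 ± 2.48 CPM (1.21, adjusted p = 7.13e-10) and GRHL1, a paralog of GRHL2, rose from 0.969 ± 0.431 to 2.38 ± 0.107 CPM (1.30, adjusted p = 4.39e-04). Of the desmosome genes, the plakoglobin gene JUP rose (1.10, adjusted p = 4.45e-12) and the plakophilin gene PKP3 fell (-1.05, adjusted p = 2.10e-10), both named after their values were seen. CDH1, the E-cadherin gene that SNAI and ZEB proteins repress, had 3, 5 and 6 counts with vehicle and 2, 4 and 1 with SCH and was not tested (exact permutation p = 0.2).

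Of 24 genes of the mesenchymal state, 17 were tested and 10 fell, while MMP14 (0.26) and COL1A1 (0.76) rose, with a median of -0.31. The changed share was 70.6%, beside 58.7% of all tested genes, 29.4% of which fell and 29.3% rose. CDH2, the N-cadherin gene, fell from 2.66 ± 0.272 to 0.815 ± 0.231 CPM (-1.70, SE 0.27, edgeR adjusted p = 1.08e-05). The collagen V gene COL5A2 fell from 2.11 ± 0.223 to 0.812 ± 0.184 CPM (-1.37, adjusted p = 2.30e-04), and TNC, the tenascin-C matrix gene, fell from 229 ± 8.32 to 117 ± 12.2 CPM (-0.97, adjusted p = 3.69e-12). CD44, a hyaluronan receptor, did not pass at 999.7 ± 31.2 and 1023 ± 23.6 CPM (0.03, adjusted p = 0.547), though with scaling by library size alone it did (0.14, adjusted p = 0.0112). Its log2 fold change was 0.061 without vehicle replicate 3 and 0.022 without vehicle replicate 1, and it passed in neither.

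Of 9 RNA-binding proteins listed for epithelial or mesenchymal splicing, 8 were tested, 7 fell and RBFOX2 rose (0.24), with a median of -0.32, where 29.4% of all tested genes fell and 29.3% rose. ESRP2, an epithelial splicing regulator also on the epithelial list, fell from 21.0 ± 2.37 to 9.45 ± 0.433 CPM (-1.16, edgeR adjusted p = 1.18e-09). PTBP1, a splicing repressor, fell from 894 ± 32.5 to 657 ± 3.65 CPM (-0.45, adjusted p = 1.24e-08) and QKI, which promotes mesenchymal splice forms, fell from 107 ± 8.73 to 80.7 ± 2.40 CPM (-0.41, adjusted p = 3.05e-06). The list thus held lowered regulators of both directions of splicing.

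TGF-beta is a classical inducer of SNAI1 and ZEB genes. Of 14 pathway genes, 13 were tested, 6 rose and 4 fell, a changed share of 76.9% where 58.7% of all tested genes changed (29.3% raised, 29.4% lowered), with a median of 0.11. The ligand gene TGFB2 fell from 54.0 ± 5.44 to 18.2 ± 1.32 CPM (-1.57, edgeR adjusted p = 1.51e-13), with 26.6% of its exonic bases shared with TGFB2-OT1. TGFB3 rose from 1.95 ± 0.229 to 4.66 ± 0.252 CPM (1.25, adjusted p = 4.42e-06), and BMP4, a related ligand, fell from 186 ± 4.75 to 94.2 ± 5.29 CPM (-0.98, adjusted p = 3.10e-13). TGFB1 rose (0.95, adjusted p = 2.39e-13), named after its values were seen, so the ligands differed in direction.

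Of 15 tested partners of vimentin and fibronectin, 6 rose and 5 fell, with a median of 0.08. The changed share was 73.3%, against 58.7% of all tested genes (29.3% raised and 29.4% lowered). SDC4, a syndecan that binds fibronectin, rose from 256 ± 6.98 to 471 ± 5.63 CPM (0.88, edgeR adjusted p = 1.77e-13). TNS3, a tensin of fibrillar adhesions, fell from 117 ± 3.03 to 58.6 ± 3.80 CPM (-0.998, adjusted p = 1.04e-12) and FBLN1, a fibronectin-binding fibulin, fell from 5.63 ± 0.481 to 2.94 ± 0.588 CPM (-0.94, adjusted p = 6.25e-05). These opposite changes stood beside an FN1 level that did not pass the test.

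**Figure D4:**
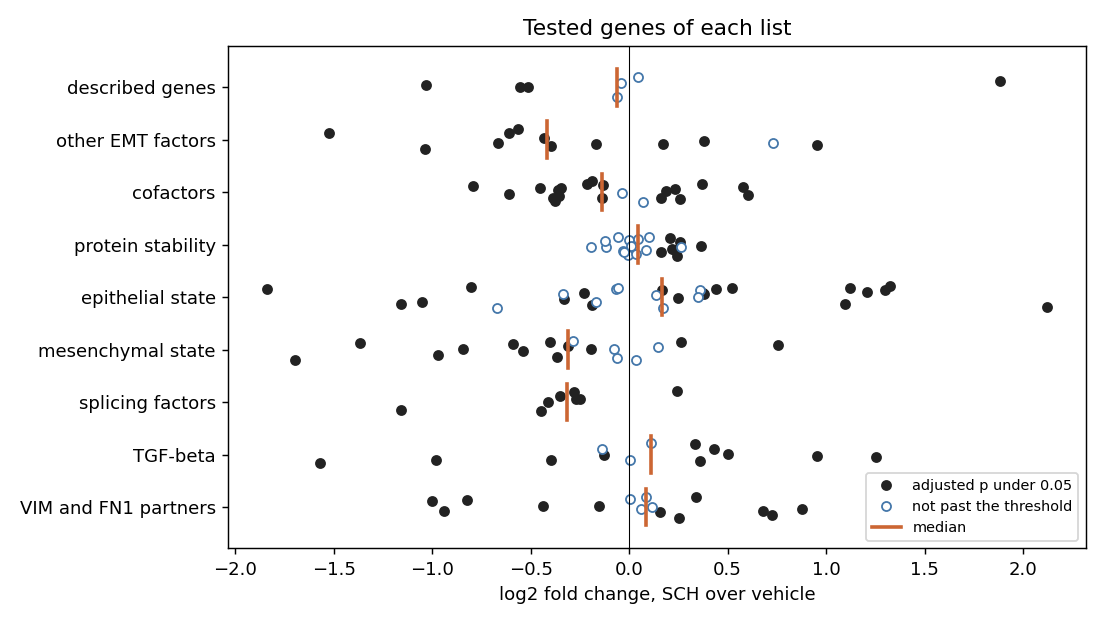
Log2 fold changes (SCH over vehicle) of the tested genes of each list (points) with list medians (lines). The median lies at -0.42 for other EMT transcription factors and at 0.17 for epithelial-state genes, and every list with more than 10 tested genes has points on both sides of 0.

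Antisense and host RNAs of the panel were few. ZEB1-AS1 fell from 3.41 ± 0.340 to 2.39 ± 0.463 CPM (-0.52, edgeR adjusted p = 0.0329) and VIM-AS1 fell from 8.06 ± 0.832 to 6.36 ± 0.683 CPM (-0.34, adjusted p = 0.0316), but each call was lost in 7 of 15 alternative settings. For ZEB1-AS1 these included leaving out SCH replicate 2 (adjusted p = 0.125), SCH replicate 3 (0.111), vehicle replicate 1 (0.128) or vehicle replicate 3 (0.0611). For VIM-AS1 they included leaving out SCH replicate 1 (adjusted p = 0.0742), SCH replicate 3 (0.143), vehicle replicate 2 (0.0698) or vehicle replicate 3 (0.12). The library kit does not mark strand, and 9.55% of ZEB1-AS1 and 32.2% of VIM-AS1 exonic bases overlap the sense gene, so reads there cannot be assigned to one or the other. SNAI3-AS1 stood at 2.49 ± 0.265 and 2.73 ± 0.421 CPM (0.14, adjusted p = 0.588). Its log2 fold change was 0.017 without SCH replicate 3 and 0.23 without SCH replicate 1, and it passed in neither. ZEB2-AS1 had at most 1 count, and MIR200CHG and MIR205HG, host genes of epithelial miRNAs, had none.

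Markers of other cell types were read in the same libraries. The fibroblast list summed to 7.07, 6.24 and 5.96 CPM with vehicle and 9.98, 10.1 and 8.99 CPM with SCH, with COL1A1 most abundant, DCN at 0 and 6 of 8 genes at or under 3 counts in every library. Of the leukocyte markers, PTPRC had 39, 37 and 34 counts with vehicle and 4, 9 and 3 with SCH, CD14 had 16, 21 and 8 counts with vehicle and 18, 21 and 15 with SCH, and CD3E had at most 1 count in any library. PTPRC was lowered and CD14 did not pass (log2 fold change 0.27, edgeR adjusted p = 0.544). The endothelial list, led by KDR, summed to 7.84 to 10.4 CPM over the 6 samples, and the luminal list, led by ERBB2, to 86.4 to 91.7 CPM with vehicle and 100.2 to 112 CPM with SCH. The mitochondrial share of counts was 3.40 to 3.55% with vehicle and 3.001 to 3.53% with SCH. The part of these levels in the changes above was not tested.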

How the data were processed

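RNA of 3 vehicle and 3 SCH cultures was poly(A)-selected and sequenced on Illumina HiSeq. Per the labels, processing used CASAVA 1.8, HISAT2 2.0.5, featureCounts 1.5.0-p3 and DESeq2 1.20.0 (submitters' processing notes). The authors deposited raw gene counts per sample and FPKM per sample. The gene coordinates matched GENCODE 29 (GRCh38) for 58724 of 58735 genes. Over 10142 genes the deposited FPKM equalled count over gene length times a per-sample scale, which stood for 0.992 to 1.005 times the total count in vehicle and 1.063 to 1.067 times in SCH samples. No 2 replicates agreed within sampling noise (scaled chi-square of their counts 2.12 or more). Counts were fitted with edgeR 4.0.16 in R 4.3.3 (TMM, filterByExpr, quasi-likelihood, Benjamini-Hochberg, 0.05). CPM used TMM-scaled library sizes.

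Members and lists were chosen with earlier results of these data known. The lists were written from general knowledge. Named genes were the members, CDH1, CDH2, CD44, the antisense and host RNAs, and up to 3 changed genes of largest change per list with a mean of at least 20 counts and no overlap of groups, plus the 3 nearest patterns to VIM and FN1. Others were chosen after their values were seen (SNAI3, FOXC1, SOX4, JUP, PKP3, MMP14, COL1A1, RBFOX2, TGFB1). Alternatives were other scalings and filters, DESeq2 1.42.0, limma 3.58.1 on log2(FPKM + 1) and log2(FPKM + 0.1), a replicate block and leaving out each sample. The procedure was tested on simulated data in which only a small part of the genes changed. That simulation does not cover scaling or false calls where 58.7% of tested genes change, as here. The summed level of the leukocyte markers is not reported here.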

Additional observations from a re-analysis of the deposited data

How the results depend on the processing

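In all 15 alternatives, 1 member was raised and 3 were lowered, and the number of changed genes ran from 7809 to 8814. Of 35 genes followed, 29 kept direction and side of the threshold. Exceptions were ZEB2, FN1, CD44, USP37, ZEB1-AS1 and VIM-AS1. With scaling by library size alone, the median of all tested genes moved by 0.10 and 62.6% of changed genes were raised, against 49.9%, and ZEB2 (0.061) and FN1 (0.040) turned positive without passing. Leaving out 1 sample each, ZEB1 ran from 0.0040 to 0.14, ZEB2 ran from -0.086 to 0.018 and FN1 from -0.12 to 0.0072, the sign turning without vehicle replicate 2 for ZEB2 and without SCH replicate 3 for FN1. Changed genes of the Snail turnover list numbered 4 on both limma FPKM scales, and 4 to 8 leaving out 1 sample each, against 7. On log2(FPKM + 1), which shrinks low genes, 11 of the 30 named changed genes moved by over 1.5 times, keeping their direction: SNAI1 to 1.05, LLGL2 to 0.78, TGFB3 to 0.47, KLF8 to 0.24, GRHL1 to 0.21, ZEB1-AS1 to -0.21, COL5A2 to -0.20, PRRX1 to -0.24, FBLN1 to -0.33, PATJ to -0.34 and CDH2 to -0.39. On log2(FPKM + 0.1), 1 did (COL5A2, -0.87). The cause of the other moves was not tested. DESeq2 changed 7919 genes, 7912 of them shared with edgeR. With the replicate block, 8705 genes changed and 4 members did, and SNAI3 passed (adjusted p = 0.0448). Deviations of samples sharing a number were hardly correlated (0.046, -0.022 and 0.022), so the numbers were not read as pairs.
Depth limits TWIST1, GRHL2 and OVOL1, each at or under 3 counts in every library, for which no difference was detectable.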

Other observations

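Over the 6 samples, the genes whose centred log2 CPM lay nearest to that of VIM, among 10714 genes with a mean of at least 100 counts, were SEPHS1 (Euclidean distance 0.0536), SRSF6 (0.0623) and NLN (0.0645), with log2 fold changes of -0.59, -0.55 and -0.56. For FN1 they were LGALS3BP (0.0463), BTBD2 (0.0588) and TATDN2 (0.0608), with log2 fold changes of -0.04, -0.07 and -0.02. These are descriptions over 6 samples. Fold changes close to those of VIM and FN1 follow from choosing the genes by distance over the same samples.

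Some marker genes of other cell types changed as single genes. PTPRC, the leukocyte phosphatase CD45, had 39, 37 and 34 counts with vehicle and 4, 9 and 3 with SCH, a log2 fold change of -2.75 (edgeR adjusted p = 8.80e-07). CD14, the other leukocyte marker tested, stood at a log2 fold change of 0.27 and did not pass (edgeR adjusted p = 0.544). FOXA1, a luminal pioneer factor, rose by 1.16 on the log2 scale (edgeR adjusted p = 4.41e-07), while GATA3, another luminal factor, fell by 0.79 (edgeR adjusted p = 4.36e-06). ERBB2, the most abundant luminal marker, also rose, so that 2 of the 3 tested luminal markers rose and 1 fell. AXL (-0.84) and CAV1 (-1.17), both abundant in the line, fell with VIM. CD44, the remaining marker of the line, did not pass (0.03, edgeR adjusted p = 0.547). Apart from VIM and CD44, these genes were chosen after their values were seen.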
